A study of Homo sapiens with 6 samples.

Results

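Growth differentiation factor 15 (GDF15) and 9 genes of the stress and p53 response were described across a transfection experiment in MDA-MB-231, an established triple-negative breast cancer cell line. The 10 genes were matched by symbol: GDF15, TP53I11, MDM2, BTG2, TP53INP1, SESN1, GADD45A, GADD45B, PLK2 and PLK3. All 10 of them are among the 24462 symbols of the count tables and among the 12650 symbols with enough counts to be tested. GDF15 and TP53I11 were selected on their readout, as large falls in miR-200a plus ELK3 against miR-200a, so their values are descriptions with no test. The other 8 genes are counted and tested separately. MDA-MB-231 cells were harvested 48 h after transfection with a negative control (NC) mimic, whose dose is not given in the sources used here, with 100 nM of miR-200a mimic, or with 100 nM of miR-200a mimic and 30 ng of an ELK3 plasmid. Each of these 3 groups has 2 libraries, and the groups are called control (the NC mimic), miR-200a, and ELK3-labelled (miR-200a plus ELK3), since the ELK3 count did not itself show the plasmid. The plasmid carries the ELK3 coding region and not the 3′UTR of the gene, so its transcript lacks the 3′ end of ELK3. The labels name no plasmid for the control and miR-200a libraries, so ELK3 and plasmid DNA cannot be told apart in these comparisons. RNA was sequenced as QuantSeq libraries, in which each polyadenylated RNA is read close to its 3′ end, and the deposited values are read counts per gene symbol. The labels do not say whether replicates are separate cultures, so p-values measure only the spread between these libraries.

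As background, p53 is a transcription factor that is stabilized by DNA damage and other stress, and it turns on genes that stop the cell cycle, repair DNA or start apoptosis. MDM2, one of its targets, marks p53 for degradation and closes a feedback loop. Many of these genes have other inputs as well, among them the integrated stress response through ATF4 and the growth factor response through serum response factor and its ETS partners, the family to which ELK3 belongs. GDF15, a secreted factor of the TGF-β superfamily, is induced by p53 and by the integrated stress response, and acts on appetite through the receptor GFRAL.

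The transfected microRNA is shown because every comparison rests on it, and its seed, bases 2 to 8, is in capitals.
hsa-miR-200a-3p: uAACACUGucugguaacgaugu
This 22-base sequence is from RefSeq on GRCh38.p14, where it lies on the plus strand of chr1:1167916-1167937. Its seed pairs with CAGTGTT. In the longest 3′UTR that GENCODE release 29 gives, TP53INP1 held 2 such matches, ELK3 held 1, and the other 9 of the 10 stress genes held 0. Among 11234 tested genes with a 3′UTR in that annotation, 21.6% held 1 or more.

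RefSeq promoter windows, each running from 250 bases before to 50 bases after a start site on GRCh38.p14, were found for 8 of the 10 genes, with 15 start sites between them. GADD45A and TP53INP1 had no window and were not searched. They were searched on both strands for a pair of adjoining p53 half-sites with up to 3 mismatches in 20 bases. Such a pair occurs in 1.12% of the 35093 promoter windows in the table. This share is per window and not per gene, and MDM2 had 4 windows and SESN1 had 3. The windows of 3 of these 8 genes held a match, GDF15, MDM2 and SESN1, and these matches are shown in capitals because they are where the classical p53 element would be read.
GDF15: cacAGCCATGCCCGGGCAAGAACtc
MDM2: gctGGTCAAGTTCAGACACGTTCcga
SESN1: tctGGACAAGTCTCCACAAGTCAgaa
The capitals mark the 20-base pair, and no matches overlapped each other. The GDF15 match begins at position 29 after the start site and has 3 mismatches, the MDM2 match begins 94 bases before the third start site (plus strand, chr12:68808767-68809066) and has 2 mismatches, and the SESN1 match begins 49 bases before the third start site (minus strand, chr6:109008939-109009238) and has 3 mismatches. The MDM2 window also held the AP-1 letters TGACTCA, present in 4.95% of promoter windows. The PLK3 window (plus strand, chr1:44800127-44800426) held the ATF4-type letters TGATGNAA, present in 3.62% of windows.
PLK3: gggTGATGTAAggc
The CArG box of serum response factor, the cyclic AMP element TGACGTCA and the ETS letters CCGGAAGT occur in 1.29%, 1.85% and 4.14% of windows, and no window of these 8 genes held one. These matches describe letters in a window and not binding. The GDF15 promoter is given in full, on the plus strand of chr19:18385908-18386207, because it belongs to the gene with the largest fall among the 10 genes.
GDF15 promoter: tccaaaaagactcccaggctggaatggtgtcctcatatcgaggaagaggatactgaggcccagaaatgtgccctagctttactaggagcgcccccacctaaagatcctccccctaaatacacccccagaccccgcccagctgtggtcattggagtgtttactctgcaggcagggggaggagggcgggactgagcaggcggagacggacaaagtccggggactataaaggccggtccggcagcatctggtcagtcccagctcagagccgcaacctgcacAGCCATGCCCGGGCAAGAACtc

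Total counts ranged from 3055915 to 4868004, the lowest in control replicate 2, and 3 counts, taken as the smallest level that can be shown, corresponded to 0.611 to 0.979 CPM (counts after all libraries were brought to 1 size). This floor covers counting error alone. The 2 ELK3-labelled libraries stood further from each other (root mean square difference of 0.559 on the log2 CPM scale) than the control pair (0.403) or the miR-200a pair (0.342), and no pair was a duplicate (chi-square of counts per degree of freedom of 1.90 or more). Levels are compared between groups and not between genes. ELK3 was at 138 and 166 CPM in control, at 102 and 103 CPM with miR-200a, and at 96.2 and 79.2 CPM in the ELK3-labelled libraries. ELK3 was thus not higher in the libraries labelled with its plasmid, and against control it was lower there (log2 fold change -0.79, edgeR adjusted p = 0.0117), a call lost without control replicate 1 or 2 (edgeR adjusted p up to 0.159). ELK3 did not pass for miR-200a against control (log2 fold change -0.56, edgeR adjusted p = 0.232) or ELK3-labelled against miR-200a (log2 fold change -0.23, edgeR adjusted p = 0.354). Since the plasmid lacks the 3′ end that the assay reads, the count is no check of the plasmid. The paper reports, by qRT-PCR and western blot, that ELK3 mRNA and protein returned to the control level with the plasmid. The line markers VIM, CD44 and AXL were present, with 4068 to 11179 counts of VIM. Of the luminal and epithelial markers, ESR1 had 0 counts in every library, PGR had at most 1, CDH1 had 1 and 0 counts in control, 11 and 12 after the miR-200a mimic alone and 3 in each ELK3-labelled library, and EPCAM had 39 and 40, 140 and 140, and 93 and 72 counts in that order. Both were thus highest with miR-200a. Neither passed in the main edgeR fit, with all libraries and the low-count filter (EPCAM between miR-200a and control had a log2 fold change of 1.43, edgeR adjusted p = 0.0713). With only those 2 groups in the model EPCAM and CDH1 passed (edgeR adjusted p = 3.71e-05 and 0.0138). EPCAM also passed with no low-count filter (edgeR adjusted p = 5.51e-05). DESeq2 called EPCAM and limma called CDH1 (DESeq2 adjusted p = 0.00735, limma adjusted p = 0.0467), and DESeq2 gave no adjusted p for CDH1. The part of these markers in the results on the stress genes was not tested. ERBB2 had 99 to 232 counts. CD44 was lower in the ELK3-labelled libraries than with miR-200a (log2 fold change -0.61, edgeR adjusted p = 0.0151) or control (log2 fold change -0.58, edgeR adjusted p = 0.0181). VIM (log2 fold changes -0.66 and -0.72) and AXL (0.23 and 0.19) did not pass in the main edgeR fit. The log2 fold changes of AXL were 0.42 and 0.40 without ELK3-labelled replicate 1, and -0.05 and -0.07 without ELK3-labelled replicate 2. With no low-count filter VIM passed in both comparisons (edgeR adjusted p = 3.37e-07 and 4.77e-08), and DESeq2 called VIM lower in both (DESeq2 adjusted p = 0.0429 and 0.0251). The call of CD44 was lost without any 1 of the control or miR-200a libraries (edgeR adjusted p up to 0.216 and 0.162).

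GDF15 (ENSG00000130513) lies on the plus strand of chr19:18374731-18389176 on GRCh38. It was high in the control and miR-200a libraries and low in both ELK3-labelled libraries. In control, GDF15 was at 325 and 276 CPM (1458 and 845 counts). With miR-200a it was at 255 and 251 CPM (1229 and 1233 counts). In the ELK3-labelled libraries it was at 33.4 and 32.2 CPM (141 and 137 counts). The mean CPM was therefore 300.2 ± 34.6 (SD, n = 2), 253 ± 2.78 (SD, n = 2) and 32.8 ± 0.845 (SD, n = 2) in that order, and the ELK3-labelled libraries lay far below all 4 others. GDF15 was 7.72-fold lower than with miR-200a (log2 fold change -2.95, standard error 0.15) and 9.16-fold lower than in control (log2 fold change -3.20, standard error 0.15). Between miR-200a and control the difference was small, the log2 fold change being -0.25 (standard error 0.13). The miR-200a libraries lay just below both control libraries, by less than those 2 differed from each other. In bulk RNA, fewer expressing cells and less RNA per cell cannot be told apart.

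**Figure D1:**
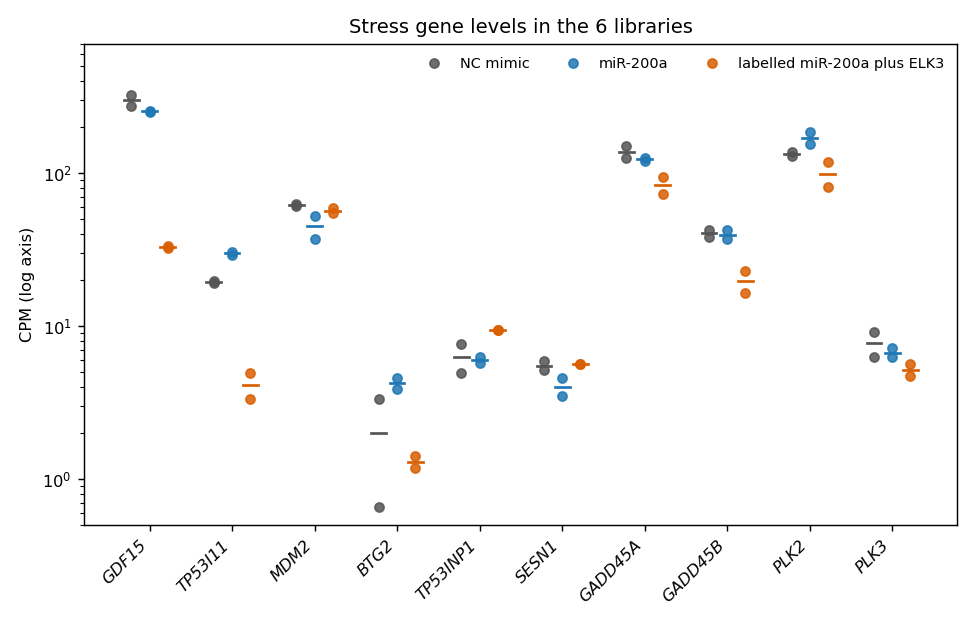
Each point is a library and each short bar is the mean of the 2 libraries of a group, with the CPM of the 10 genes on a log axis. GDF15 and TP53I11 in the ELK3-labelled libraries sit well below the other 4 libraries, GADD45A, GADD45B and PLK2 sit moderately below, and MDM2 and SESN1 do not.

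TP53I11, a transcript first found as p53-inducible and whose function is little known, had the same low group but a different order of the others. It was at 19.6 and 19.3 CPM (88 and 59 counts) in control. With miR-200a it was at 30.3 and 29.3 CPM (146 and 144 counts). In the ELK3-labelled libraries it was at 3.32 and 4.94 CPM (14 and 21 counts). The 3 groups did not overlap, and miR-200a was the highest of them. TP53I11 was 7.18-fold lower in the ELK3-labelled libraries than with miR-200a (log2 fold change -2.84, standard error 0.27), 4.68-fold lower than in control (log2 fold change -2.23, standard error 0.28) and 1.53-fold higher with miR-200a than in control (log2 fold change 0.62, standard error 0.23). Among 9937 genes with a mean log2 CPM above 3, the difference of GDF15 between the ELK3-labelled libraries and miR-200a ranked 1 and that of TP53I11 ranked 3. Both genes were picked for large falls in this comparison, so these ranks follow from the choice. TSPAN18 ranked between them (log2 fold change -2.95), and the next gene after TP53I11 was C10orf10 (log2 fold change -2.72).

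TSPAN18, a tetraspanin gene, shares its place in the genome with TP53I11. On GRCh38, in GENCODE release 29, TP53I11 lies on the minus strand of chr11:44885903-44951306 and TSPAN18 on the plus strand, and the exons of the 2 genes share 74 bases at chr11:44932348-44932421. TSPAN18 had 70 and 48 counts in control, 131 and 136 counts with miR-200a, and 12 and 18 counts in the ELK3-labelled libraries. That is 0.795 to 0.944 counts of TSPAN18 for each count of TP53I11, so the 2 genes kept nearly the same ratio in all 6 libraries. Whether the counting used the strand is not given in the sources used here, and reads of the 2 genes cannot be told apart. The same holds for PLK3 and TCTEX1D4, whose exons share 78 bases on opposite strands, with 0.5 to 0.829 counts of TCTEX1D4 for each count of PLK3. TP53INP1 lies inside NDUFAF6 on the other strand, and although their coding transcripts share 0 exon bases, NDUFAF6 had 0.9 to 1.53 counts for each count of TP53INP1. MDM2 and its neighbour CPM, a carboxypeptidase gene, share 0 exon bases, and CPM had at most 0.098 counts for each count of MDM2.

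**Figure D2:**
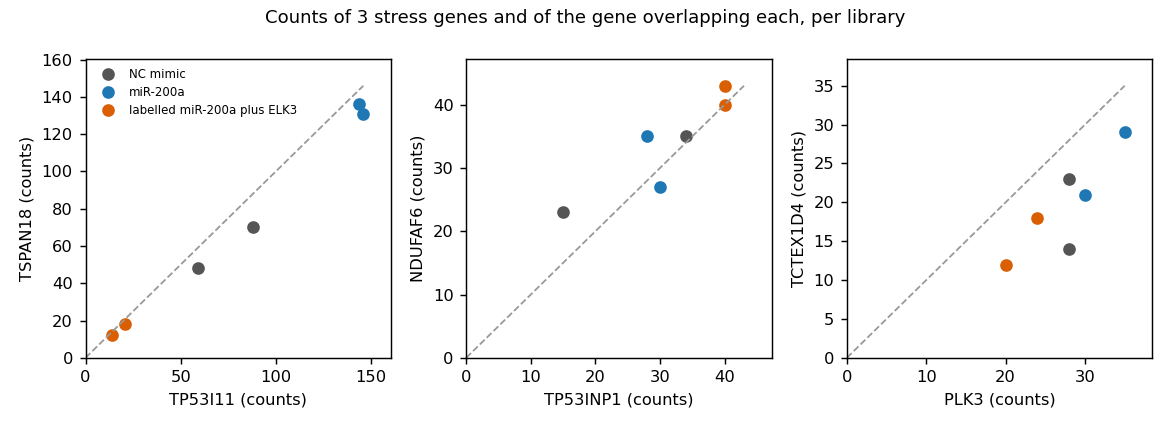
Counts of TP53I11, TP53INP1 and PLK3 (horizontal axes) are plotted against counts of the gene that overlaps each on the opposite strand (vertical axes), 1 point per library, with a dashed line at equal counts. TP53I11 and TSPAN18 lie along a line close to equality from 14 and 12 counts to 146 and 131 counts.

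The genes that act on p53 itself, MDM2 and TP53INP1, did not pass the test in any comparison. MDM2 (chr12:68808176-68850686, plus strand), the ubiquitin ligase that marks p53 for degradation, was at 63.0 and 60.7 CPM in control, at 52.5 and 37.3 CPM with miR-200a, and at 54.5 and 58.8 CPM in the ELK3-labelled libraries. Both miR-200a libraries were below the other 4, with a wide gap between them. The log2 fold change of MDM2 was -0.46 (standard error 0.19, edgeR adjusted p = 0.485) for miR-200a against control, 0.33 (standard error 0.19, edgeR adjusted p = 0.252, 95% interval -0.08 to 0.74) for ELK3-labelled against miR-200a, and -0.13 (standard error 0.19, edgeR adjusted p = 0.68) for ELK3-labelled against control. With only the control and miR-200a libraries in the model, MDM2 passed the threshold (edgeR adjusted p = 0.0474), as it did without ELK3-labelled replicate 1 (0.0456) or replicate 2 (0.0427).

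TP53INP1, a nuclear stress protein that helps kinases phosphorylate p53, was at 7.57 and 4.89 CPM in control, at 6.23 and 5.71 CPM with miR-200a, and at 9.47 and 9.40 CPM in the ELK3-labelled libraries. The ELK3-labelled libraries were above the other 4, at 15 to 40 counts in all. The log2 fold change was -0.09 (edgeR adjusted p = 0.972) for miR-200a against control, 0.66 (standard error 0.32, edgeR adjusted p = 0.196) for ELK3-labelled against miR-200a and 0.57 (standard error 0.33, edgeR adjusted p = 0.275) for ELK3-labelled against control. TP53INP1 was the only 1 of the 10 genes with a miR-200a seed match in the 3′UTR, and between miR-200a and control its libraries overlapped.

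BTG2 and SESN1 had few counts. BTG2, an antiproliferative protein that recruits the CCR4-NOT deadenylase to mRNAs, had 15 and 2 counts in control, 22 and 19 counts with miR-200a, and 6 and 5 counts in the ELK3-labelled libraries. Control replicate 2 was below 3 counts, and the ELK3-labelled libraries lay below both miR-200a libraries and between the 2 control libraries. The log2 fold change for ELK3-labelled against miR-200a was -1.68 (standard error 0.62, edgeR adjusted p = 0.0989), which passed the threshold when no filter on low counts was used (edgeR adjusted p = 0.0375). For miR-200a against control it was 0.94 (standard error 0.58, edgeR adjusted p = 0.692), ranging from 0.33 without control replicate 2 to 2.64 without control replicate 1, and for ELK3-labelled against control it was -0.73 (standard error 0.70, edgeR adjusted p = 0.521).

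SESN1, a sestrin that binds GATOR2 and restrains mTORC1 when amino acids are short, was at 5.12 and 5.87 CPM in control, at 4.57 and 3.46 CPM with miR-200a, and at 5.68 and 5.64 CPM in the ELK3-labelled libraries. The range was 17 to 24 counts over all libraries, the 2 miR-200a libraries being the lowest by CPM. Its log2 fold change was -0.44 (edgeR adjusted p = 0.79), 0.49 (edgeR adjusted p = 0.389) and 0.05 (edgeR adjusted p = 0.94) in the order of comparisons used above, each with a standard error of 0.36 or 0.37.

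The growth arrest genes GADD45A and GADD45B, whose products bind PCNA, cyclin B1 with CDK1 and the kinase MAP3K4, were lower in the ELK3-labelled libraries than in both other groups. GADD45A (chr1:67685061-67688338, plus strand) was at 150.3 and 126 CPM in control, at 120.4 and 126 CPM with miR-200a, and at 94.3 and 73.3 CPM in the ELK3-labelled libraries. GADD45B (chr19:2476122-2478259, plus strand) was at 42.3 and 38.5 CPM in control, at 37.2 and 42.2 CPM with miR-200a, and at 22.7 and 16.5 CPM in the ELK3-labelled libraries. For both genes the control and miR-200a libraries overlapped, and the ELK3-labelled libraries were below all 4 of them. GADD45B was 2.02-fold lower than with miR-200a (log2 fold change -1.02, standard error 0.21, edgeR adjusted p = 0.0145) and 2.07-fold lower than in control (log2 fold change -1.05, standard error 0.21, edgeR adjusted p = 0.0128). GADD45A was 1.47-fold lower than with miR-200a (log2 fold change -0.56, standard error 0.16, edgeR adjusted p = 0.0472) and 1.65-fold lower than in control (log2 fold change -0.72, standard error 0.16, edgeR adjusted p = 0.0199). For miR-200a against control, the log2 fold changes were -0.16 for GADD45A (edgeR adjusted p = 0.825) and -0.03 for GADD45B (edgeR adjusted p = 0.986).

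Of the polo-like kinases, PLK2 (chr5:58453982-58460260, minus strand), a stress-induced kinase of centriole duplication, was at 129.8 and 137 CPM in control, at 186 and 156 CPM with miR-200a, and at 118 and 80.6 CPM in the ELK3-labelled libraries. The 3 groups did not overlap, and miR-200a was the highest. PLK2 was 1.72-fold lower in the ELK3-labelled libraries than with miR-200a (log2 fold change -0.79, standard error 0.18, edgeR adjusted p = 0.0222). The difference from control did not pass (log2 fold change -0.43, standard error 0.18, edgeR adjusted p = 0.144), except without ELK3-labelled replicate 1 (edgeR adjusted p = 3.1e-05). For miR-200a against control the log2 fold change was 0.36 (standard error 0.18, edgeR adjusted p = 0.603), which passed with only those 2 groups in the model (edgeR adjusted p = 0.00726) and without ELK3-labelled replicate 1 (0.00828) or replicate 2 (0.00594). PLK3, a stress-responsive kinase of the same family, was at 6.24 and 9.14 CPM in control, at 6.23 and 7.13 CPM with miR-200a, and at 5.68 and 4.70 CPM in the ELK3-labelled libraries. PLK3 did not pass in any comparison, with log2 fold changes of -0.18, -0.36 and -0.54 (edgeR adjusted p = 0.937, 0.519 and 0.338) and standard errors of 0.34 to 0.36.

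**Figure D3:**
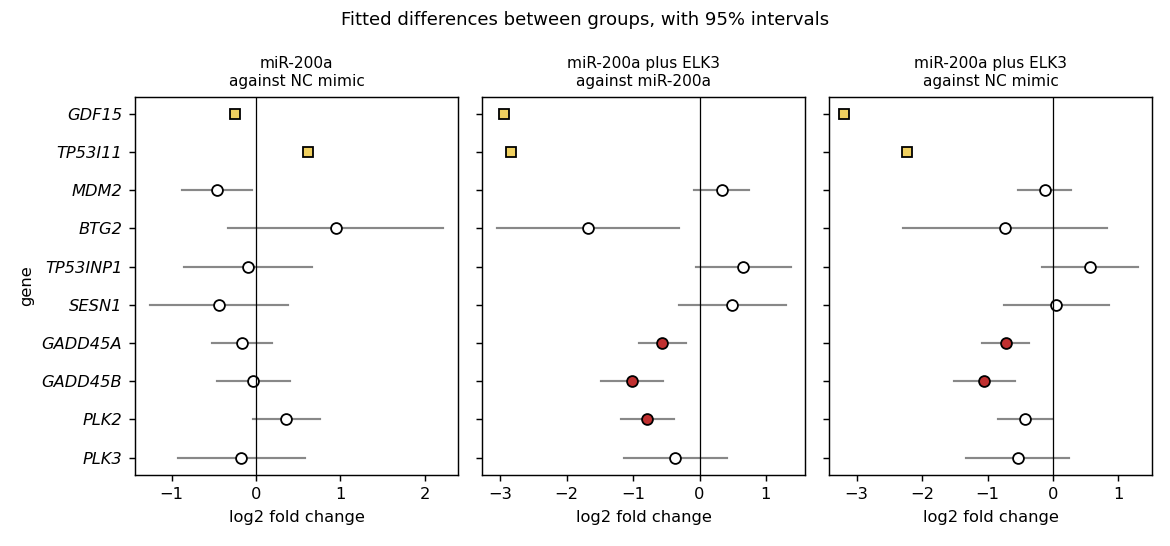
The log2 fold change of each gene is shown for the 3 comparisons, with lines for 95% intervals of the 8 tested genes. Red circles passed the edgeR test and white circles did not, and yellow squares are GDF15 and TP53I11, which were selected on these values and are drawn without an interval. GADD45A, GADD45B and PLK2 are the red circles of the middle panel, at -0.56, -1.02 and -0.79.

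Counted together, 3 of the 8 genes that were not picked for their fall were called lower in the ELK3-labelled libraries than with miR-200a and 0 were called higher, where 5.91% of all tested genes were called lower and 7.03% higher. Against control, 2 of the 8 were called lower and 0 higher, where 5.95% of all genes were called lower and 6.92% higher. Between miR-200a and control, edgeR, DESeq2 and limma each called 0 of the 8, where edgeR called 0.269% of all genes. DESeq2 gave no adjusted p in this comparison for BTG2, TP53INP1, SESN1 or PLK3, so it could not call them. In edgeR 1 of the 8 had an unadjusted p under 0.05, as did 9.24% of all genes. The median log2 fold change of the 8 genes was -0.46 and -0.48 in the comparisons with the ELK3-labelled libraries and -0.13 between miR-200a and control, against 0.02, 0.01 and -0.02 for all genes tested. With upper-quartile scaling, 622 genes were called higher and 882 lower for ELK3-labelled against miR-200a, where TMM scaling gave 889 and 748. Against control, upper-quartile scaling gave 677 higher and 902 lower, and TMM scaling gave 876 and 753.

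The calls of these 3 genes depended on the libraries in the model. Against miR-200a, none of the 3 passed without miR-200a replicate 1 (edgeR adjusted p = 0.228 for GADD45A, 0.119 for GADD45B and 0.215 for PLK2) or without miR-200a replicate 2 (0.295, 0.174 and 0.136). Without control replicate 1 or 2, GADD45B still passed, and GADD45A (edgeR adjusted p = 0.0999 and 0.0978) and PLK2 (0.0664 and 0.0651) did not. In a model of ELK3-labelled and miR-200a alone, the edgeR adjusted p was 0.096, 0.0503 and 0.0652 for GADD45A, GADD45B and PLK2. Against control, GADD45A and GADD45B did not pass without control replicate 1 (edgeR adjusted p = 0.191 and 0.129) or replicate 2 (0.111 and 0.108), and GADD45A did not pass without miR-200a replicate 1 (0.0646) or replicate 2 (0.0657). The direction held in each of these fits.

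Among 29 other p53 target genes, of which 27 were tested, 2 were called higher and 1 lower for ELK3-labelled against miR-200a, near the background of 7.03% higher and 5.91% lower over all genes, and the median log2 fold change was -0.07 against 0.02 for all genes. AEN, an exonuclease of apoptosis, was at 29.5 and 24.9 CPM with miR-200a and at 59.2 and 74.7 CPM in the ELK3-labelled libraries (log2 fold change 1.30, standard error 0.19, edgeR adjusted p = 0.00378). TRIAP1, a small protein that restrains apoptosis, was lowest with miR-200a. It was at 75.05 and 84.5 CPM in control, at 30.9 and 36.3 CPM with miR-200a, and at 43.6 and 75.2 CPM in the ELK3-labelled libraries. Its log2 fold change for ELK3-labelled was 0.82 against miR-200a (edgeR adjusted p = 0.0491) and -0.42 against control (edgeR adjusted p = 0.247). BBC3, the pro-apoptotic BH3 protein PUMA, was at 147 and 155 CPM with miR-200a and at 53.3 and 62.8 CPM in the ELK3-labelled libraries (log2 fold change -1.38, standard error 0.14, edgeR adjusted p = 0.00107). Against control, 1 was called higher, AEN (log2 fold change 1.499, edgeR adjusted p = 0.00179), and 2 lower, BBC3 (log2 fold change -1.34, edgeR adjusted p = 0.000867) and the cyclin gene CCNG1 (log2 fold change -1.13, edgeR adjusted p = 0.0102). Without ELK3-labelled replicate 1 or 2, 10 and 8 of the 27 passed against miR-200a, where 35.7% and 22.1% of all genes passed, and 10 and 9 against control, where 35.6% and 22.3% did. The pro-apoptotic genes AEN and BBC3 thus differed in direction. Between miR-200a and control, edgeR and limma called 0 of the 27 and DESeq2 called 1, where they called 0.269%, 0.0316% and 0.696% of all genes. The gene called by DESeq2 was TRIAP1 (log2 fold change -1.24 in edgeR, edgeR adjusted p = 0.0726). In edgeR 5 of the 27 had an unadjusted p under 0.05, as did 9.24% of all genes. BBC3 passed in each of the 15 alternatives in both comparisons. AEN did not pass without miR-200a replicate 1 or 2 in the first comparison (edgeR adjusted p up to 0.0905) or without control replicate 1 or 2 in the second (up to 0.0547). CCNG1 did not pass without control replicate 1 or 2 (edgeR adjusted p up to 0.133). TRIAP1 was lost in 11 of the 15 alternatives, without each library but ELK3-labelled replicate 1 among them (edgeR adjusted p up to 0.306).

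CDKN1A, the cell cycle inhibitor p21 and the best known p53 target, was chosen for mention after its values were seen. It was at 134 and 139 CPM in control, at 156 and 139 CPM with miR-200a, and at 120.3 and 162 CPM in the ELK3-labelled libraries. The groups overlapped, and its log2 fold changes were 0.12, -0.06 and 0.05 in the 3 comparisons (standard error 0.16, edgeR adjusted p = 0.896, 0.814 and 0.861). Without ELK3-labelled replicate 2 the log2 fold change of CDKN1A against miR-200a was -0.33, and without ELK3-labelled replicate 1 it was 0.125. Among 13 genes of the p53 family and its regulators, 11 were tested. Over all genes 7.03% were called higher and 5.91% lower against miR-200a, and 6.92% and 5.95% against control. USP7, a protease that removes ubiquitin from p53 and MDM2, was called higher against miR-200a (log2 fold change 0.56, edgeR adjusted p = 0.0356) and against control (log2 fold change 0.55, edgeR adjusted p = 0.0378). The kinase gene HIPK2 (log2 fold change -0.54, edgeR adjusted p = 0.0191) and MDM4 (log2 fold change -0.51, edgeR adjusted p = 0.0318), the MDM2 paralog that masks p53, were called lower against control. These calls were each lost without any 1 of the control or miR-200a libraries (edgeR adjusted p up to 0.273 for USP7, 0.186 for HIPK2 and 0.221 for MDM4), and USP7 did not pass by DESeq2 (DESeq2 adjusted p = 0.057 and 0.0572) or limma (limma adjusted p = 0.174 and 0.154). The median log2 fold change of the 11 genes was 0.01 against miR-200a and -0.15 against control. Between miR-200a and control, edgeR, DESeq2 and limma each called 0 of the 11, where they called 0.269%, 0.696% and 0.0316% of all genes. In edgeR 1 of the 11 had an unadjusted p under 0.05, as did 9.24% of all genes.

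Among the 13 genes of the integrated stress response, 2 were called higher and 4 lower for ELK3-labelled against miR-200a (median log2 fold change -0.06), and 0 higher and 4 lower against control (median log2 fold change -0.89). Over all genes 7.03% were called higher and 5.91% lower in the first comparison and 6.92% and 5.95% in the second, with medians of 0.02 and 0.01. By limma 1 and 3 of the 13 were called, where 0.846% and 3.09% of all genes were. ATF3, a stress-induced transcription factor, was at 96.4 and 78.0 CPM in control, at 91.8 and 92.7 CPM with miR-200a, and at 35.8 and 36.7 CPM in the ELK3-labelled libraries. It was 2.55-fold lower than with miR-200a (log2 fold change -1.35, standard error 0.16, edgeR adjusted p = 0.00194) and 2.42-fold lower than in control (log2 fold change -1.27, standard error 0.16, edgeR adjusted p = 0.00167). PPP1R15A, the phosphatase subunit GADD34 that ends the response, was at 254 and 260.4 CPM, at 211 and 210.5 CPM, and at 115 and 117 CPM in the same order, 1.82-fold lower than with miR-200a (log2 fold change -0.86, edgeR adjusted p = 0.00346) and 2.22-fold lower than in control (log2 fold change -1.15, edgeR adjusted p = 0.00071). DDIT4, an mTORC1 inhibitor, was also called lower (log2 fold change -0.57, edgeR adjusted p = 0.013 against miR-200a, and -0.93, edgeR adjusted p = 0.00136 against control), as was CEBPB, named after its values were seen (log2 fold change -1.08, edgeR adjusted p = 0.0138, and -0.90, edgeR adjusted p = 0.0255, in the same order). CHAC1, a glutathione-degrading enzyme, was 4.29-fold higher than with miR-200a (log2 fold change 2.10, standard error 0.38, edgeR adjusted p = 0.00916), and ASNS, asparagine synthetase, was 1.69-fold higher (log2 fold change 0.76, edgeR adjusted p = 0.0211). ATF4, the factor that directs the response, was at 243 ± 3.66 CPM (SD, n = 2) with miR-200a and at 311 ± 81.6 CPM (SD, n = 2) in the ELK3-labelled libraries, and DDIT3 was at 73.1 ± 3.25 and 72.2 ± 1.61 CPM (SD, n = 2). Both were named after their values were seen, and neither passed. Between miR-200a and control, edgeR, DESeq2 and limma each called 0 of the 13, where they called 0.269%, 0.696% and 0.0316% of all genes. In edgeR 5 of the 13 had an unadjusted p under 0.05, as did 9.24% of all genes. Calls against miR-200a were lost without miR-200a replicate 2 for all 6 genes and without miR-200a replicate 1 for all but ATF3 (edgeR adjusted p up to 0.0561 for ATF3, 0.0874 for PPP1R15A, 0.178 for DDIT4, 0.138 for CEBPB, 0.127 for CHAC1 and 0.191 for ASNS). ASNS was also lost without control replicate 1 or 2, and DDIT4 without control replicate 1. Against control, PPP1R15A and DDIT4 passed without any 1 library, ATF3 was lost without control replicate 1 (edgeR adjusted p = 0.0524), and CEBPB was lost without any 1 of the control or miR-200a libraries (up to 0.188).

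Among 19 immediate-early genes, a list that an earlier account of these libraries had drawn up after the comparisons were seen, 9 were called lower and 0 higher for ELK3-labelled against miR-200a, and 12 lower and 0 higher against control. Over all genes 5.91% and 5.95% were called lower. DESeq2 called 9 in each comparison (9.59% and 9.99% of all genes), and limma called 3 and 5 (0.846% and 3.09% of all genes). The median log2 fold changes were -1.25 and -1.21, and those of all genes 0.02 and 0.01. EGR1, a zinc finger factor that growth factors induce through serum response factor, was at 849 and 854 CPM in control, at 491 and 520.0 CPM with miR-200a, and at 215 and 211 CPM in the ELK3-labelled libraries. It differed in each comparison (log2 fold change -0.75, edgeR adjusted p = 0.0289 for miR-200a against control, -1.25, edgeR adjusted p = 0.000389 against miR-200a, and -1.999, edgeR adjusted p = 2.72e-05 against control), and its call between miR-200a and control was lost without any 1 of their 4 libraries (up to 0.715). FOSB was lower by a log2 fold change of -1.69 (edgeR adjusted p = 0.00143) against miR-200a and -2.22 (edgeR adjusted p = 0.000201) against control.

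**Figure D4:**
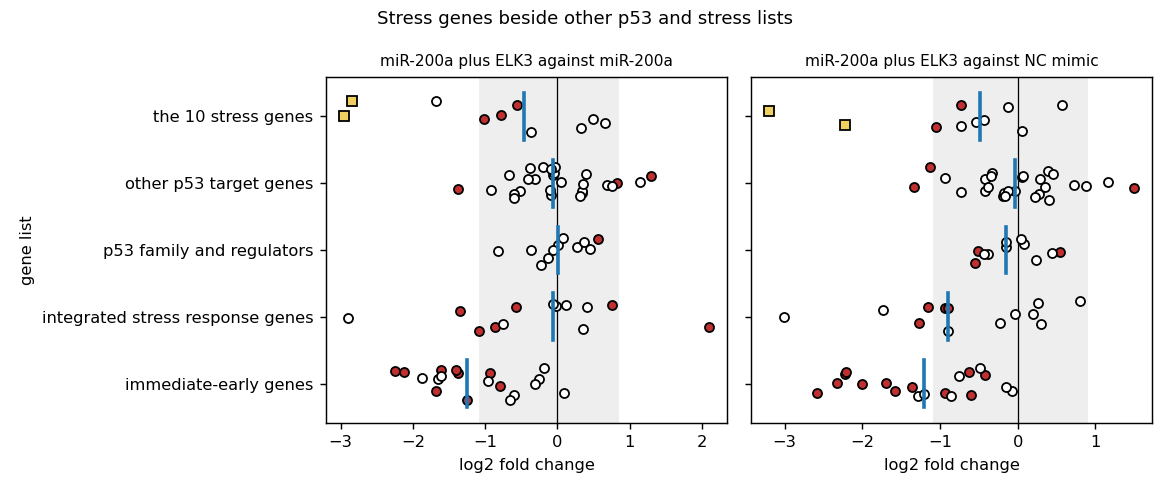
Each point is the log2 fold change of a tested gene in the 2 comparisons with the ELK3-labelled libraries, by list, with blue bars for list medians (of the 8 tested genes in the top row) and grey for the range from the 5th to the 95th percentile of all genes. Red points passed the edgeR test, white points did not, and yellow squares are GDF15 and TP53I11. The medians of the other p53 target genes lie near 0, at -0.07 and -0.04, and those of the immediate-early genes at -1.25 and -1.21.

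For the genes that work with the 10, the background was 12.9% of all genes called in either direction in each comparison with the ELK3-labelled libraries. Of the receptor and the enzymes that process GDF15, FURIN alone of 5 genes was tested, at 139 ± 4.96 CPM in control, 165 ± 2.47 CPM with miR-200a and 167 ± 14.8 CPM in the ELK3-labelled libraries (SD, n = 2), and it did not pass (edgeR adjusted p = 0.633, 0.921 and 0.193). GFRAL, RET and PCSK6 had 0 counts in every library. Of the 5 GADD45 partner genes, 1 was called, CCNB1, which encodes cyclin B1 and was higher against miR-200a (log2 fold change 0.60, edgeR adjusted p = 0.0209). Of the 10 GATOR and mTORC1 genes, 1 was called, MTOR, which was higher against control (log2 fold change 0.83, edgeR adjusted p = 0.0468). Of the 7 CCR4-NOT genes, CNOT8 was called lower against miR-200a (log2 fold change -0.67, edgeR adjusted p = 0.0462) and CNOT6L higher against control (log2 fold change 0.76, edgeR adjusted p = 0.0207). Each of these 4 calls was lost without any 1 of the control or miR-200a libraries (edgeR adjusted p up to 0.22 for CCNB1, 0.275 for MTOR, 0.32 for CNOT8 and 0.202 for CNOT6L).

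Of 12 paralogs of the 10 genes, 10 were tested, and for ELK3-labelled against miR-200a 1 was called higher and 1 lower, where 7.03% and 5.91% of all genes were. PLK1, the mitotic polo-like kinase, was at 136 and 131 CPM with miR-200a and at 188 and 192 CPM in the ELK3-labelled libraries (log2 fold change 0.51, standard error 0.12, edgeR adjusted p = 0.0249). BTG1, a relative of BTG2, was at 563 and 519 CPM with miR-200a and at 290.1 and 328 CPM in the ELK3-labelled libraries (log2 fold change -0.81, standard error 0.12, edgeR adjusted p = 0.00431). BTG1 was also called lower against control (log2 fold change -0.73, edgeR adjusted p = 0.00567), together with MDM4. PLK1 was lost without any 1 of the control or miR-200a libraries (edgeR adjusted p up to 0.254), and BTG1 was lost against miR-200a without either miR-200a library (up to 0.117) and against control without either control library (up to 0.0867). SESN2, a paralog of SESN1 named after its values were seen, was at 28.1 and 30.7 CPM in control, at 22.2 and 20.4 CPM with miR-200a, and at 25.3 and 46.3 CPM in the ELK3-labelled libraries, and it did not pass.

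The genes whose profiles lay nearest to GDF15 were found as the smallest root mean square difference of log2 CPM, each centred on its own mean, over the 6 libraries. Only the 9937 genes with a mean log2 CPM above 3 were compared. They were CYP1B1 (0.243), C10orf10 (0.295), PER1 (0.374), FBXO32 (0.469) and NR4A1 (0.479), and TP53I11 was next (0.483). CYP1B1, a cytochrome P450, had 1106 and 619 counts in control, 1082 and 1130 in miR-200a, and 147 and 163 in the ELK3-labelled libraries. PER1, a clock gene, had 103 and 99 counts, 98 and 109 counts, and 13 and 20 counts in the same order. The genes nearest to TP53I11 were TSPAN18 (0.08), PTPRH (0.26), CYP1B1 (0.283), C10orf10 (0.305) and IL24 (0.322), and GDF15 came at rank 22. The overlapping gene TSPAN18 was thus nearer to TP53I11 than any other of the compared genes was to GDF15 or TP53I11.

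**Figure D5:**
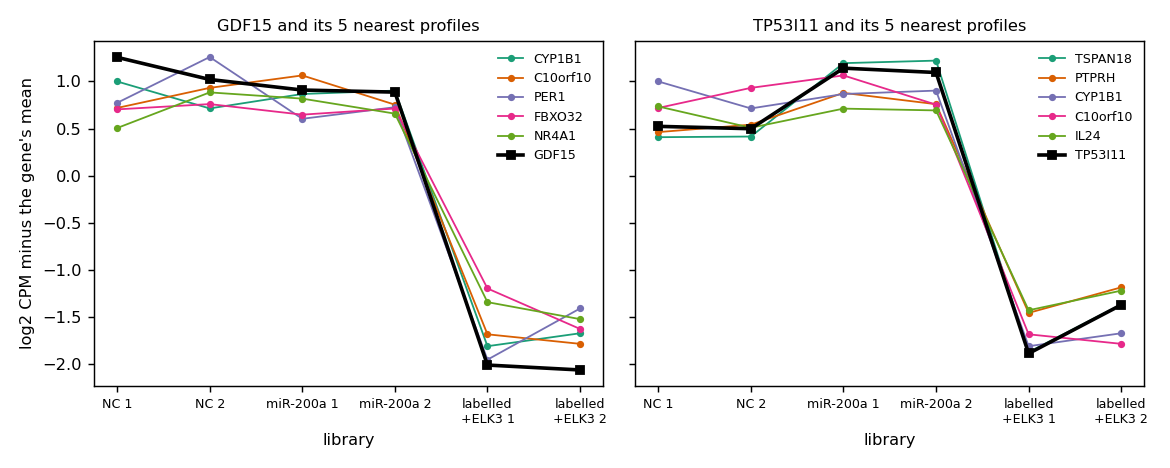
For each of the 6 libraries, the plot gives log2 CPM minus the mean of the gene for GDF15 (left, black squares) or TP53I11 (right, black squares) and the 5 genes of nearest profile. All lines drop in the 2 ELK3-labelled libraries, and TSPAN18 runs within a root mean square difference of 0.08 of TP53I11.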

How the data were processed

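RNA was measured in 6 QuantSeq 3′ mRNA libraries of MDA-MB-231. The authors deposited raw read counts per gene symbol, not normalized. The submitters' processing notes name Bowtie2, edgeR and hg19, with roles and versions not given. Lines sharing a symbol were summed (286 symbols, none of the 10 genes). Counts were scaled by TMM and CPM computed in edgeR 4.0.16 (R 4.3.3), filtered with filterByExpr (minimum count of 10), and compared by the quasi-likelihood test with all 6 libraries in 1 model, with 3 residual degrees of freedom and Benjamini-Hochberg adjustment over 12650 genes at a threshold of 0.05. Groups came from the labels. Alternatives were DESeq2 1.42.0, limma 3.58.1 on quantile-normalized log2(count + 1), other filters and scalings, 2-group models, a replicate block and leaving out each library. The test was run on simulated data first. The 10 genes, the gene lists and the tests were chosen with earlier results of these data known. Named genes are the 10 genes, ELK3, the line markers, at most 2 called genes of smallest p in each direction from each list and comparison (the 2 highest expressed where none was called), and the 5 nearest profiles; others are named as chosen after their values were seen. Gene positions are from GENCODE release 29 on GRCh38, while the tables hold no coordinates. The level of 1 gene of the regulator list is not reported here.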

Additional observations from a re-analysis of the deposited data

How the results depend on the processing

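Each result was recomputed under 15 alternatives. Leaving out 1 library of an arm leaves a lone sample that is assumed to vary like the other groups. For miR-200a against control, 34 genes were called, against 88 with DESeq2, 230 with no low-count filter, 983 with only the 2 groups, 22 with the crossed block, 4 with limma and 0 to 1010 with 1 library left out. The 8 tested stress genes had 2 calls in the 2-group model, where 7.89% of all genes were called. The other p53 target genes had 3 calls in that model, 1 with DESeq2 (0.696% of all genes) and 1 with no filter (1.23%). For ELK3-labelled against miR-200a, 1637 genes were called, against 2490 with no filter, 542 in the 2-group model, 107 with limma (25 higher, 82 lower) and 31 to 4684 with 1 library left out (the lowest without miR-200a replicate 2). The 8 stress genes had 0 calls in the 2-group model and 0 with limma, where 4.38% and 0.846% of all genes were called. The other p53 target genes had 5 calls with no filter (13.4% of all genes) and 1 with limma. For ELK3-labelled against control, 1629 genes were called, against 2525 with no filter, 587 in the 2-group model, 391 with limma (165 higher, 226 lower) and 96 to 4675 with 1 library left out (the lowest without control replicate 2). The 8 stress genes had 1 call in the 2-group model, 0 with limma and 0 to 3 with 1 library left out, and the other p53 target genes had 1 to 10. With 1 library left out, the log2 fold change of GDF15 ranged from -0.36 to -0.12, from -2.98 to -2.94 (-3.02 with upper-quartile scaling) and from -3.31 to -3.07 in the 3 comparisons, and that of TP53I11 from 0.60 to 0.64, from -3.19 to -2.60 and from -2.55 to -1.97. With 1 library left out, the sign turned for TP53INP1 (-0.343 to 0.285), GADD45B (-0.123 to 0.062) and PLK3 (-0.449 to 0.099) between miR-200a and control, and for SESN1 (-0.051 to 0.144) and BTG2 (-1.345 to 0.962) between ELK3-labelled and control, and SESN1 turned to -0.007 with upper-quartile scaling. None of these was called. The cause of these changes was not tested. Replicates share only a number: the deviations of same-numbered libraries had correlations of -0.00, -0.04 and -0.11. With the replicate block 13, 1157 and 1170 genes were called, and GADD45A did not pass against miR-200a; with the pairing crossed, 22, 1644 and 1661. In all 3 comparisons the highest of these counts over all genes came without an ELK3-labelled library. Depth limits BTG2, SESN1, TP53INP1 and PLK3, with at most 40 counts in any library.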
